A study of Mus musculus with 6 samples.

Results

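The connexin genes of the cochlea were described in RNA-sequencing data of cochlear tissue from C57BL/6 mice. The 7 genes were Gjb2, Gjb6, Gja1, Gjc1, Gjc3 and Gjb1, which encode connexins, and Panx1, which encodes a pannexin. They were chosen by name, through the gene to which each Ensembl transcript of the table belongs, and all 7 were among the 25419 genes of the table and among the 19465 genes that were tested. Young mice were 1 month old and old mice were 12 months old. Each group held 3 samples, and every sample was RNA from the tissue of 3 mice mixed together, so that differences between single mice could not be seen. All mice were of the same inbred strain, which loses hearing early in life, and the labels name no transgene and no treatment for either group. The study took these ages as a model of hearing loss with age, and the comparison here asked which connexin genes were present in the cochlea and which of them differed between the ages.

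Connexins are membrane proteins that form hexameric channels, and the channels of neighbouring cells dock to form gap junctions, through which ions and small metabolites pass from cell to cell. In the cochlea, the supporting cells of the organ of Corti are joined to each other in one such network, and the fibrocytes of the spiral ligament and the basal and intermediate cells of the stria vascularis in another. Gjb2 and Gjb6 encode Cx26 and Cx30, the connexins of these networks, and mutations of the human genes are a frequent cause of inherited deafness. Pannexins are related in membrane topology but form channels of single membranes that release ATP.

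The unit of all levels is FPKM, the number of sequenced fragments per kilobase of transcript and of sequencing depth, summed over the transcripts of a gene. It is a level per length, so that genes could be set beside each other. Each sample rested on an estimated 12560000 to 15500000 fragments, a number read from the steps between low FPKM values, since the table holds no counts. Summed FPKM ranged from 576487 to 601724 per sample. The protocol names basilar membranes as the dissected tissue, but genes of the lateral wall were abundant, among them Coch, a marker of spiral ligament fibrocytes, at 7371 to 9242 FPKM in young and 5303 to 5702 FPKM in old mice, and Dct, a marker of the stria vascularis, at 600.3 to 951.4 FPKM. Ptgds, the most abundant gene of the supporting cell list, was at 25792 to 27710 FPKM in young and 21404 to 23384 FPKM in old mice. The levels below are therefore those of mixed tissue, in which fewer cells of a type and less RNA per cell cannot be told apart.

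Gjb2 and Gjb6 are neighbours on mouse chromosome 14 (GRCm38). Gjb2 lies at chr14:57098600-57104702 and Gjb6 at chr14:57123303-57133611, both on the minus strand, with 18600 nt between them and 28909 nt between their start sites. The other 5 genes lie apart, Gja1 at chr10:56377330-56402513 on the plus strand, Gjc1 at chr11:102799579-102819700 on the minus strand, Gjc3 at chr5:137953461-137963098 on the minus strand, Gjb1 at chrX:101376378-101385629 on the plus strand and Panx1 at chr9:15002128-15045478 on the minus strand.

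The promoters of 4 of the genes are shown, those of the neighbouring pair Gjb2 and Gjb6, which had the highest levels, that of Gja1, which differed between the ages, and that of the start site from which nearly all Gjb1 FPKM came. Each is the 250 bases before the RefSeq start site (GRCm38.p6), read 5′ to 3′ on the strand of the gene. The windows are chr14:57104703-57104952 for Gjb2, chr14:57133612-57133861 for Gjb6, chr10:56377050-56377299 for Gja1 and chrX:101383482-101383731 for Gjb1. Capitals mark matches, on either strand, to the letters of a GC box, a TATA box, a SOX element or an AP-1 element, which are spelled out after the sequences.
Gjb2: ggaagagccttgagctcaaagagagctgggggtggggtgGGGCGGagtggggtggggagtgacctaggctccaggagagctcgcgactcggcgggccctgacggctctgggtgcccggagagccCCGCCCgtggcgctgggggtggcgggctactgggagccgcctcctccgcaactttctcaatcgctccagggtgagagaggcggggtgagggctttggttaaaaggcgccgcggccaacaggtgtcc
Gjb6: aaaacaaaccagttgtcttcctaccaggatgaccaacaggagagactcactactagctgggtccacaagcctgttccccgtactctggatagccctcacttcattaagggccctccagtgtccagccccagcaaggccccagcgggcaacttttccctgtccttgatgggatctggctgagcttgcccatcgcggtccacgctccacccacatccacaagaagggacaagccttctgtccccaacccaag
Gja1: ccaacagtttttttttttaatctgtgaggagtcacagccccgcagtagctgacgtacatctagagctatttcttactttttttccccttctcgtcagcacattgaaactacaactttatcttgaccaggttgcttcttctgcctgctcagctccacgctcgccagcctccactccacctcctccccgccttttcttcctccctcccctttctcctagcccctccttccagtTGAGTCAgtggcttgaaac
Gjb1: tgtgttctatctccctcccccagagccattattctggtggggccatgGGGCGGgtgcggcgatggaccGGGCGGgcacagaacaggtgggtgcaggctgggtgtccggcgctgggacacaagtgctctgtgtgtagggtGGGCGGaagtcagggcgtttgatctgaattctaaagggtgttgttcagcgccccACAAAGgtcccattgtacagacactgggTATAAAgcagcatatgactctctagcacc

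The neighbours Gjb2 and Gjb6 had unlike promoters by these letters. The Gjb2 window had a GC content of 69.2% and held 2 GC boxes, at 211 and 126 bases before the start. The Gjb6 window had a GC content of 56.8% and held no match to any of the motifs searched. Over all promoters of the table, the median GC content of 32536 promoter windows of the same length was 52.4%. The Gja1 window, with a GC content below that median, held 1 AP-1 element at 19 bases before the start. The Gjb1 window, with a GC content of 58.4%, held 3 GC boxes, a TATA box at 29 bases and a SOX element at 57 bases before the start. The GC box was searched as GGGCGG, and 33% of all windows held it on either strand. The TATA box was searched as TATAAA and was held by 12.3% of the windows. For the SOX element, searched as ACAAAG, the share was 16.5%. For the AP-1 element, searched as TGAGTCA, it was 4.45%. None of the matches shown overlap each other, and each is a description of the letters only.

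The 7 genes fell into a pair with very high levels and a group with low ones. Gjb6 was 99th and Gjb2 185th in the order of mean FPKM over all genes tested, and the other genes were far below. In young mice the order was Gjb6, Gjb2, Gjc3, Gjb1, Gjc1, Gja1 and Panx1. Mean Gjb6 FPKM was 1.78 times that of Gjb2, Gjb2 was 24.5 times Gjc3, and Gjc3 was 2.33 times Gjb1, each without overlap between the samples. From Gjb1 to Panx1, each gene overlapped with the next in the order. In old mice Gjb6 was 1.55 times Gjb2, Gjb2 was 30.4 times Gjc3 and Gjc3 was 3.42 times Gjc1, again without overlap. Gjc1 and Gjb1 then overlapped, Gjb1 was 1.84 times Panx1 without overlap, and Panx1 and Gja1 overlapped. Gja1 thus stood sixth of 7 in young mice and last in old mice.

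**Figure D1:**
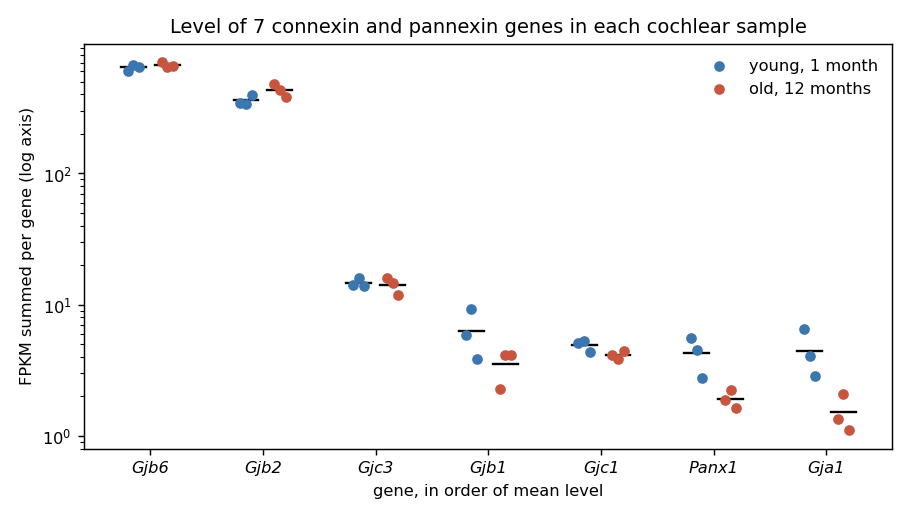
FPKM of the 7 genes (log axis), with 1 point per sample, young mice in blue and old mice in red, and a bar at the mean of each group of 3 samples. Gjb6 and Gjb2 lie between 338.6 and 702.1 FPKM in every sample, and Gja1 and Panx1 are the genes whose old samples all lie below the young ones.

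Gjb6 was the most abundant connexin gene in every sample. Its FPKM was 601.9, 675.7 and 650.6 in the young samples and 702.1, 648.4 and 656.7 in the old samples. The groups overlapped, with the highest value in an old sample and the lowest in a young one. The means were 642.7 ± 37.6 in young and 669.1 ± 28.9 in old mice (SD, n = 3). The log2 change from young to old was 0.06 with an SE of 0.07 and a 95% confidence interval of -0.11 to 0.22, and the limma adjusted p was 0.626. No difference was detected, and any change within this interval remains compatible with the values.

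Gjb2 had FPKM of 345.8, 338.6 and 397.5 in young mice and 478.3, 433.2 and 381.2 in old mice. Old samples 1 and 2 were above all young samples, and old sample 3 was below young sample 3, so that the groups overlapped. The means were 360.6 ± 32.1 and 430.9 ± 48.6 (SD, n = 3), a ratio of 1.19. The log2 change was 0.25 (SE 0.10, 95% confidence interval 0.02 to 0.49). It had an unadjusted limma p of 0.0394 and an adjusted p of 0.158, and it did not pass the threshold of 0.05. The unadjusted value is common in these data, since 27.8% of all genes tested had an unadjusted p below 0.05. Under quantile normalization the Gjb2 change was 0.06 and that of Gjb6 was -0.11, against a shift of -0.02 in the median of all genes.

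The ratio of Gjb6 to Gjb2 within a sample does not depend on scaling between samples. It was 1.741, 1.996 and 1.637 in young mice and 1.468, 1.497 and 1.723 in old mice. Gjb6 exceeded Gjb2 in 6 of 6 samples, and the ratio of old sample 3 lay within the young range. The log2 ratio was 0.20 lower in old mice (difference -0.20, exact two-sided permutation p of 0.2, where the smallest possible p is 0.1). Each gene rested on 9690 to 17900 estimated fragments per sample, so that counting error was small beside the spread between samples.

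The marker genes of the cells that are known to express Gjb2 and Gjb6 were summed beside them. The 14 supporting cell markers summed to 29545 to 31201 FPKM in young and 24811 to 26619 FPKM in old mice, lower in old mice without overlap. Ptgds made up most of this sum, with means of 26812 FPKM in young and 22536 FPKM in old mice. Taken singly, 5 of the 14 were lower and 1 was higher without overlap, where 16.1% and 17.6% of all genes were. Of the 14, 1 passed as higher and 2 as lower, where 5.65% and 3.81% of all genes did. The 10 genes of the fibrocyte list summed to 12156 to 14304 FPKM in young and 10287 to 10919 FPKM in old mice, also lower without overlap. Coch was the largest part of this sum. It was the 1 marker that passed as lower, with a log2 change of -0.60 and a limma adjusted p of 0.0231. The 2 genes of the list that passed as higher were Car3 (1.15, 0.0122) and Slc26a4 (1.18, 0.00536). Slc26a4 was also in the list of potassium circulation, and the cells it came from were not tested. The 10 markers of the stria vascularis summed to 1113 to 1699 FPKM in young and 1540 to 1649 FPKM in old mice, and 1 passed as higher. Their part in the Gjb2 and Gjb6 values was not tested.

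Together, Gjb2 and Gjb6 made up nearly all connexin FPKM. Over the 20 connexin genes of the mouse that were summed, the total was 989.5, 1059 and 1080 FPKM in young mice and 1211, 1115 and 1066 FPKM in old mice. The share of the pair was 96.2% ± 0.73 in young and 97.3% ± 0.22 in old mice (SD, n = 3), and the groups overlapped. The 18 other connexin genes summed to 41.87, 45.01 and 32.16 FPKM in young and to 30.89, 33.21 and 28.28 FPKM in old mice. Old sample 2 was above young sample 3, and the exact permutation p of both sums was 0.2.

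**Figure D2:**
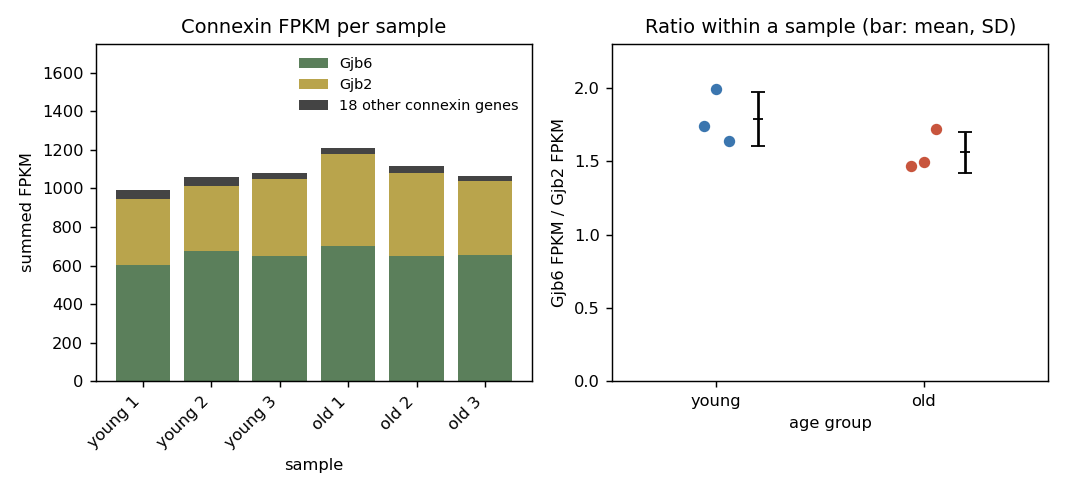
Left, FPKM of Gjb6, Gjb2 and 18 other connexin genes stacked for each of the 6 samples. Right, the ratio of Gjb6 to Gjb2 FPKM in each sample (points) with mean and SD of each age group of 3 samples, 1.79 ± 0.18 in young and 1.56 ± 0.14 in old mice, which overlap.

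Gja1 encodes Cx43, the most widespread connexin of mammalian tissues, which is found in bone cells, astrocytes, fibroblasts and vessels among others. Its FPKM was 6.54, 4.04 and 2.84 in young mice and 1.35, 2.07 and 1.10 in old mice. Every old sample was below every young sample, and the young samples differed among themselves by more than the old ones. The means were 4.48 ± 1.89 and 1.51 ± 0.50 (SD, n = 3), 2.96 times as high in young as in old mice. Gja1 fell by 1.47 on the log2 scale of FPKM + 0.1 (SE 0.35, 95% confidence interval -2.28 to -0.66), with a limma adjusted p of 0.0424. It was 1 of 7 genes past the threshold, where 9.45% of all genes tested passed in either direction and 3.81% passed as lower in old mice. With 1 gene of 7, the count does not set the 7 genes apart from the rest. The old samples rested on 47.1, 90.1 and 41.2 estimated fragments and the young on 241, 155 and 98.9.

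The Gja1 call lay close to the threshold and was lost under 10 of 16 alternative settings, and the log2 change lay between -1.75 and -1.09 over all 16. It was lost with a pseudocount of 1 (limma adjusted p of 0.0505). It was also lost on leaving out young sample 1 (0.114), young sample 2 (0.143), old sample 1 (0.141), old sample 2 (0.106) or old sample 3 (0.131), and leaving out each of these samples also lowered the number of genes called in the whole table from 1840 to between 5 and 390. The levels of bone and vessel markers are given beside Gja1, since these tissues express it. Of 11 markers of osteoblasts and osteocytes, 10 had negative log2 changes and 3 passed as lower in old mice, where 3.81% of all genes did. Their summed FPKM was 145.6 to 438.9 in young and 86.2 to 103.9 in old mice. The 8 endothelial markers summed to 171.7 to 230.1 FPKM in young and 128.9 to 191.3 FPKM in old mice, and 0 of 8 passed limma's threshold. At an unadjusted p below 0.05, 3 were lower, as were 2554 of all 19465 genes tested. No marker of these lists was at 0 in any sample, and their part in the Gja1 result was not tested.

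Gjc1 encodes Cx45, a connexin of smooth muscle, vessels and conducting cells. It had FPKM of 5.16, 5.27 and 4.40 in young mice and 4.17, 3.85 and 4.42 in old mice. Old sample 3 was just above young sample 3, and the other old samples were below all young ones. The log2 change was -0.25 (SE 0.14, 95% confidence interval -0.57 to 0.08), with a limma adjusted p of 0.294. The means were 4.94 ± 0.47 and 4.14 ± 0.29 FPKM (SD, n = 3).

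Gjc3 and Gjb1 encode Cx29 and Cx32, connexins of myelinating Schwann cells, and Gjb1 is also expressed in liver and other epithelia. Gjc3 had FPKM of 14.1, 16.1 and 13.9 in young mice and 15.9, 14.6 and 11.9 in old mice. The groups overlapped, with old sample 3 below every young sample, and the log2 change was -0.06 (SE 0.13, 95% confidence interval -0.36 to 0.24, limma adjusted p of 0.785). Its sign turned without young sample 2 (0.00) or old sample 3 (0.06).

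Gjb1 had FPKM of 5.86, 9.24 and 3.83 in young mice and 2.28, 4.16 and 4.12 in old mice. Young sample 3 was below old samples 2 and 3, and young samples 1 and 2 were above all old samples. The log2 change was -0.79 (SE 0.35, 95% confidence interval -1.62 to 0.04), with a limma adjusted p of 0.199. The Schwann cell and myelin markers had a summed FPKM of 969.6 to 1455 in young and 843.2 to 876.0 in old mice. Of these, 7 of 12 passed as lower in old mice, where 3.81% of all genes did. Young sample 3 had the lowest sum of this list among the young samples, and it was also the lowest young sample for Gjb1. The part of these markers in the Gjb1 and Gjc3 values was not tested. Of the oligodendrocyte markers, 0 of 5 passed limma's threshold. At an unadjusted p below 0.05, 1 was higher and 1 lower, as were 2849 and 2554 of all 19465 genes tested. The summed FPKM of this list, 220.1 to 288.2 in young and 317.8 to 356.3 in old mice, was mostly Cldn11, which the stria vascularis also expresses. The myelin genes Mog and Mobp of this list were highest in young sample 1, at 1.54 and 4.54 FPKM, and did not exceed 0.403 and 0.773 FPKM in the other samples.

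Panx1, a pannexin that releases ATP and is found in many cell types, had FPKM of 5.58, 4.49 and 2.79 in young mice and 1.88, 2.24 and 1.63 in old mice. Every old sample was below every young sample. The means were 4.29 ± 1.41 and 1.92 ± 0.31 (SD, n = 3), 2.24 times as high in young as in old mice. Of the young sample 1 value, 2.21 FPKM came from a short transcript that is described below and rests on very few fragments. The log2 change was -1.08 (SE 0.27, 95% confidence interval -1.72 to -0.44), and the limma adjusted p of 0.0512 did not pass the threshold. Gja1 and Panx1 were the 2 of 7 genes whose groups did not overlap, both lower in old mice, where 33.7% of all genes tested did not overlap and 16.1% were lower in old mice without overlap. Panx1 passed with a minimum mean FPKM of 1 (adjusted p of 0.0412), with quantile normalization (0.0477), with sample weights (0.0403) and without young sample 3 (0.0298). The spiral ganglion neuron markers had a summed FPKM of 868.6 to 1540 in young and 564.9 to 643.8 in old mice. Of these, 8 of 9 passed as lower in old mice, where 3.81% of all genes did. The summed supporting cell, fibrocyte, hair cell, Schwann cell, osteoblast and chondrocyte lists were also lower in old mice without overlap. The stria vascularis, endothelial and erythrocyte sums overlapped, and the oligodendrocyte and macrophage sums were higher without overlap. The part of any of these lists in the Panx1 result was not tested.

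**Figure D3:**
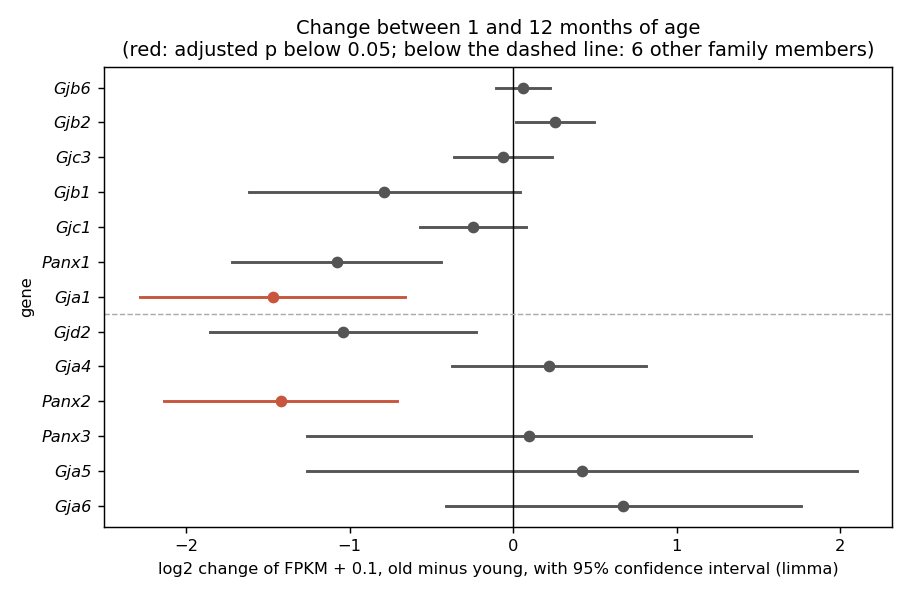
Log2 change from young to old (FPKM + 0.1, limma) with 95% confidence interval for the 7 genes, above the dashed line, and 6 other connexin and pannexin genes, below it. Gja1 at -1.47 and Panx2 at -1.42, in red, passed the threshold of an adjusted p of 0.05, and the intervals of Gjb6, Gjc3, Gjb1 and Gjc1 include 0.

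Of the 16 other connexin and pannexin genes, 8 were tested and 1 passed. Panx2, the pannexin best known from neurons, had FPKM of 4.91, 5.04 and 2.61 in young mice and 1.82, 1.45 and 1.12 in old mice, without overlap. It fell by 1.42 on the log2 scale (SE 0.31, limma adjusted p of 0.0340). The call was lost without each of young samples 1 and 2 and old samples 1, 2 and 3, with adjusted p of 0.0917 to 0.134, and also with no filter (0.112) and with no variance trend (0.0780). Gjd2 encodes Cx36, the connexin of electrical synapses between neurons. It had FPKM of 4.35, 6.18 and 3.24 in young mice and 2.98, 2.43 and 1.29 in old mice, also without overlap, and a log2 change of -1.04 (SE 0.35) with a limma adjusted p of 0.104.

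The vascular connexin genes Gja4 and Gja5 had log2 changes of 0.22 and 0.42, with limma adjusted p of 0.618 and 0.740. Gja5 was at 1.22 FPKM in young sample 1 and 1.88 FPKM in old sample 3 and at 0.281 to 0.396 FPKM in the other samples. Panx3, a pannexin of bone and cartilage, ranged from 0.485 to 2.97 FPKM in young and from 0.963 to 1.78 FPKM in old mice. Its mean FPKM was lower in old mice while its log2 change was 0.10, and the limma adjusted p was 0.934. Gja6 had means below 0.3 FPKM in both groups and a limma adjusted p of 0.393. The 8 genes that were not tested for their low level, Gja3, Gja10, Gjb5, Gjd3, Gjd4 and Gje1 among them, did not exceed 0.16 FPKM in any sample, and Gjb5 was listed at 0 in all 6.

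**Figure D4:**
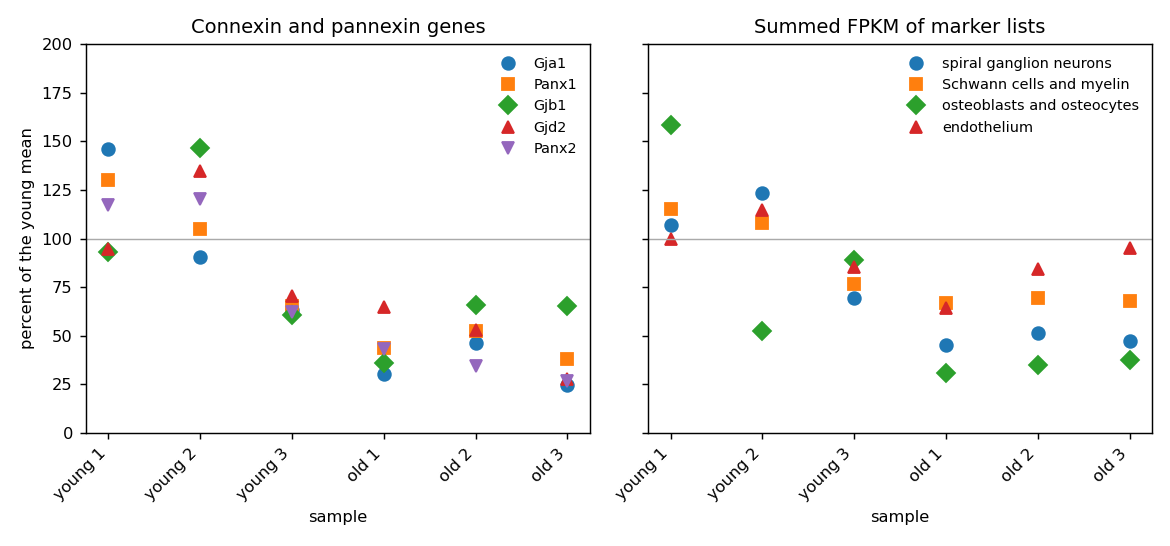
Left, FPKM of Gja1, Panx1, Gjb1, Gjd2 and Panx2 in each sample, as a percent of the mean of the 3 young samples. Right, the summed FPKM of 4 marker lists on the same scale. Young sample 3 is the lowest young sample for all 5 genes and for the neuron, Schwann cell and endothelial lists, but not for the osteoblast list, in which young sample 2 is lowest.

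The table holds 13 of the 27 annotated transcripts of the 7 genes, and they show which start sites the FPKM was assigned to. Gjb2 (ENSMUST00000055698), Gja1 (ENSMUST00000068581) and Gjc3 (ENSMUST00000077119) had 1 transcript each. Gjb6 had 2, of which ENSMUST00000039380 held 94.4% to 96.8% of the FPKM in every sample. The 3 Gjb1 transcripts have coding parts of the same length (849 nt), and ENSMUST00000119190, which starts 7358 nt downstream of the first of them, held 99.4% of the FPKM in old sample 2 and nearly all of it in the other samples. This is the start site whose promoter is shown above.

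Gjc1 FPKM was divided unevenly between transcripts with coding parts of the same length (1188 nt). ENSMUST00000092567 held 68.5%, 56.8% and 40.5% of it in young mice and 17.1%, 92.5% and 45.9% in old mice. ENSMUST00000068933, which starts 521 nt downstream, held 20.9%, 37.9% and 52.5% in young and 75.8%, 0.027% and 41.4% in old mice. Both the lowest and the highest share of each of these transcripts came from old samples, while the summed Gjc1 level ranged only from 3.85 to 5.27 FPKM.

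Panx1 FPKM came from ENSMUST00000164273 in every sample but young sample 1, where a transcript of 357 nt (ENSMUST00000169288) held 39.7%, or 2.21 FPKM. The depth estimate for young sample 1 took 290 nt off each length, so that very few fragments give such a value on 357 nt. Fragments were not estimated for transcripts this short. The gene value of young sample 1, 5.58 FPKM, includes this transcript. ENSMUST00000164273 alone was at 3.37, 4.49 and 2.79 FPKM in young and at 1.88, 2.24 and 1.63 FPKM in old mice. Its groups did not overlap, as for 24.6% of all transcripts tested, and its log2 change was -0.84 against -1.08 for the sum, with a limma adjusted p of 0.169 over all transcripts. Of 11 transcripts of the 7 genes that were tested one by one, 0 passed limma's threshold, where 0.748% of all 38764 transcripts passed. An unadjusted p below 0.05 was found for 3 of the 11. The share of all transcripts at that level was not counted, and that of all genes tested was 27.8%. The Gja1 transcript, with the same values as its gene, had a limma adjusted p of 0.119 over all transcripts.

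**Figure D5:**
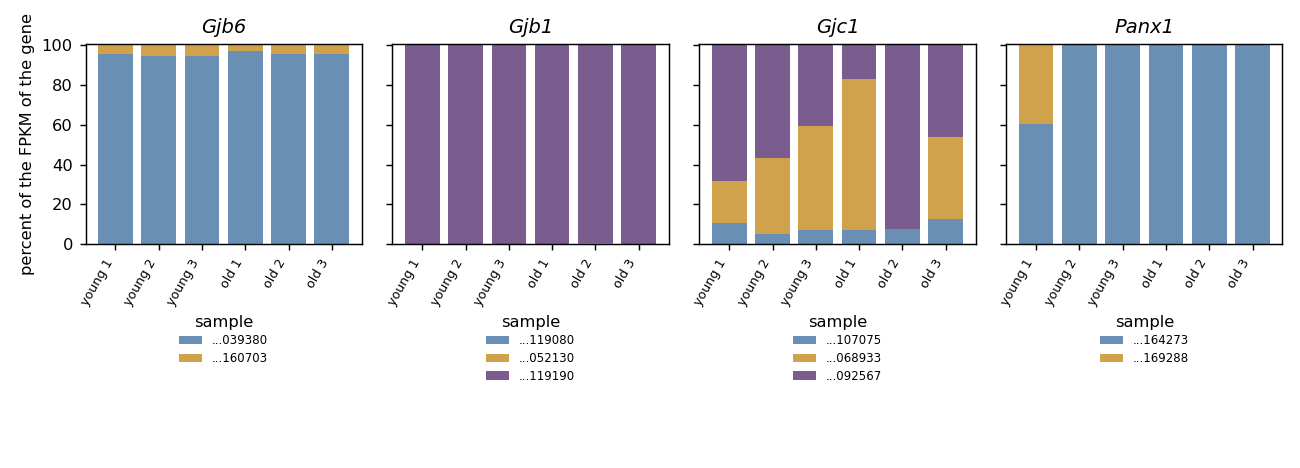
Percent of the FPKM of Gjb6, Gjb1, Gjc1 and Panx1 that was assigned to each of their transcripts, named by the last 6 digits of the Ensembl identifier, in each of the 6 samples. Gjb6 and Gjb1 rest on 1 main transcript, Gjc1 is divided differently in every sample, and the second Panx1 transcript holds a visible share in young sample 1 only.

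Gap junction proteins are anchored, trafficked and turned over by partner proteins. Of 20 genes of connexin partners and trafficking, 5 passed limma's threshold, 2 higher and 3 lower in old mice, and the median log2 change was 0.06 against 0.01 for all genes. Of all genes tested, 9.45% passed in either direction, 5.65% as higher and 3.81% as lower. Ctnnb1 (beta-catenin), the most abundant of them, was at 387.7 to 430.6 FPKM in young and 488.0 to 515.6 FPKM in old mice and rose by 0.27 (adjusted p of 0.0470). Ezr, which encodes the membrane linker ezrin, rose by 0.41 (0.0210). Tjp1 encodes the scaffold ZO-1, which binds the tail of Cx43 and other connexins. It was at 46.6, 49.3 and 51.3 FPKM in young and 39.0, 34.2 and 37.7 FPKM in old mice and fell by 0.41 on the log2 scale (0.0258). Dbn1 (drebrin), an actin-binding partner of Cx43, fell by 0.64 (0.0451), and Cdh2 (N-cadherin) fell by 0.75 (0.0268). Under the sample weights 9 of 20 passed and without the variance trend 0 of 20 passed, and 0 also passed without any 1 of young samples 1 and 2 and old samples 1, 2 and 3.

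In the recycling of potassium, gap junctions are the route by which the ion is thought to return from the hair cells to the stria vascularis. Of 20 genes of potassium circulation, 3 passed, 2 as higher and 1 as lower, where 9.45% of all genes passed, and the median log2 change was 0.09 against 0.01 for all genes. Slc26a4, the anion exchanger pendrin, was at 94.1 to 112.6 FPKM in young and 209.9 to 249.5 FPKM in old mice and rose by 1.18 on the log2 scale (limma adjusted p of 0.00536). Kcnj16, an inward rectifier potassium channel, rose by 0.67 (0.0273), and Kcnma1, the BK channel of hair cells and other cells, fell by 0.78 (0.0157). Without young sample 1, young sample 2 or old sample 2, 1 of 20 passed, and without old sample 1 or old sample 3, 0 passed. The hair cell markers summed to 720.6 to 962.6 FPKM in young and 376.3 to 443.0 FPKM in old mice. Calb2 made up most of this sum, with means of 702.6 FPKM in young and 319.0 FPKM in old mice. Its young values of 765.6, 838.2 and 504.1 FPKM had the order of the summed neuron markers (1339, 1540 and 868.6 FPKM). Whether Calb2 came from hair cells or neurons was not tested, so that the sum is not one of hair cells alone by these data. Of the hair cell markers, 4 of 10 passed as lower, where 3.81% of all genes did, and 9 of 10 changes were negative. The part of these markers in the Kcnma1 result was not tested.

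ATP released through connexin and pannexin channels acts on purinergic receptors of neighbouring cells. Of 20 genes of extracellular ATP signalling, 19 were tested and 2 passed as higher in old mice, where 5.65% of all genes did, and the list had a median change of 0.31 on the log2 scale against 0.01 for all genes. P2rx2, the ATP-gated channel with the highest level of the list, was at 29.5, 23.7 and 30.5 FPKM in young and 53.1, 64.5 and 67.3 FPKM in old mice and rose by 1.14 (limma adjusted p of 0.0111). P2ry2, a G protein-coupled ATP receptor, rose by 0.38 (0.0334). Without any 1 young sample 1 gene of the list passed, and without any 1 old sample 0 passed. The summed FPKM of the list was 140.7 to 148.9 in young and 178.1 to 205.1 in old mice. The macrophage markers, of which Lyz2 was the most abundant, summed to 82.5 to 114.7 FPKM in young and 471.6 to 567.3 FPKM in old mice with 6 of 8 past the threshold as higher and 8 of 8 changes positive, and their part in these values was not tested.

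The 4 genes whose levels varied most like those of Gjb2 over the 6 samples were Tspan15 (Pearson's r of 0.987), Nhsl1 (0.986), Arhgef19 (0.986) and Rab11fip4 (0.985), out of 10372 genes with a mean of at least 5 FPKM. These values describe 6 points that share libraries, depth and the split by age. All 4 genes had higher means in old than in young mice, as had Gjb2 itself, and this direction follows from how they were chosen. Gjb6, the neighbour of Gjb2 and its partner in mixed channels, was in place 2640 with an r of 0.551, and Gjc3 was in place 4497 with an r of 0.169.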

How the data were processed

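Cochlear RNA of 3 young (1 month) and 3 old (12 months) samples was measured by RNA-sequencing of directional libraries, and the samples were grouped by their labels. According to the submitters' processing notes, GRCm38, CASAVA 1.8, TopHat2 2.0.9, Cufflinks 2.1.1 and Cuffdiff 2.1.1 were used. The deposited values are FPKM per transcript, computed by the authors for each sample. How libraries were scaled to each other and which annotation was used is not given in the sources used here.

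Of 55679 Ensembl transcripts, 55275 matched GENCODE M21 (GRCm38) and were summed per gene, and 404 were left out of the gene sums. The 992 transcripts with names of the authors were kept, each as a gene of its own, and count among the genes of the table. Depth was estimated from the steps of low FPKM values of transcripts of 1000 to 4000 nt (92.4% to 94.0% of values within 0.1 of a whole step), for transcripts of at least 500 nt, and covers counting error only. Genes with a mean FPKM of at least 0.1 were compared with limma 3.58.1 in R 4.3.3 (lmFit, eBayes with trend) on log2(FPKM + 0.1), which understates changes of low genes. Age group was the only term, p was two-sided and Benjamini-Hochberg adjusted over all 19465 genes, and the threshold was 0.05. Cuffdiff, the test of the study, needs reads and was not run. Exact permutation tests used scipy 1.17.1, and the code was tested on simulated data. Nothing says whether samples came from separate dissections, so that p-values measure the spread between these samples.

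Members and lists were chosen with earlier results of these data known. The named genes are the 7 members, the other connexin and pannexin genes, of each pathway list the most abundant gene and up to 6 genes that passed and did not overlap between the groups (largest change first), of each marker list the most abundant gene and summed levels, and the 5 genes most like Gjb2 by Pearson's r. Values of some of these genes are not reported here. Dct and Coch, and Cldn11, Mog and Mobp, are named as checks of tissue and cell type, and were chosen after their values were seen. Car3 and Slc26a4 are named beside Coch as the genes of the fibrocyte list that passed as higher, and Slc26a4 is not taken as a marker of fibrocytes alone. Of the marker lists not described with a gene, 2 of 5 chondrocyte genes (1 higher) and 0 of 7 erythrocyte genes (limma, 1 lower at an unadjusted p below 0.05) passed. Promoters came from RefSeq (GRCm38.p6) for 6 of the 7 members, and no window was given for Gjc1. The alternatives were the pseudocount (0.01 and 1), the filter (none and a mean FPKM of 1), the scaling (median of ratios and quantile), no variance trend, sample weights, a replicate block, the most abundant transcript and each sample left out.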

Additional observations from a re-analysis of the deposited data

How the results depend on the processing

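The numbers of calls were the results that changed most with the processing. The Gja1 log2 change was negative in all 16 alternatives, but its call was lost with a pseudocount of 1 (-1.09), and at an unchanged value of -1.47 with no filter (limma adjusted p of 0.134), with no variance trend (0.0945), with the replicate block (0.0551) and with the most abundant transcript (0.0530). Over samples left out it ranged from -1.75 to -1.16. Panx1 passed with a mean FPKM of at least 1 (-1.08), quantile normalization (-1.09) and sample weights (-1.06), and ranged from -1.35 to -0.86 over samples left out. Gjb6 turned to -0.11 under quantile normalization. Gjc3 ranged from -0.15 to 0.06 over samples left out, with 0.004 without young sample 2 and 0.055 without old sample 3. Panx3 turned to -0.01 (-0.008) with a pseudocount of 1, to -0.54 without young sample 2 and to -0.06 (-0.063) without old sample 1, within a range of -0.54 to 0.655 over samples left out. Gja5 turned to -0.25 without old sample 3, within a range of -0.25 to 1.01 (1.013). Of the 7 genes, 0 passed with a pseudocount of 1, no filter, no variance trend, the block or the most abundant transcript, 2 with a mean of at least 1, quantile normalization or sample weights, and 0 to 2 over samples left out. Of the other connexins and pannexins, 0 passed with no filter or no trend, and 0 to 1 over samples left out. Of the connexin partners, 1 passed with no filter, 0 with no trend, 9 with weights, 0 with the block, 2 with the most abundant transcript and 0 to 5 over samples left out. Of the potassium genes, 1 passed with no filter or no trend and 0 to 3 over samples left out. Of the ATP genes, 1 passed with no filter, no trend, the block or the most abundant transcript, and 0 to 1 over samples left out. Over all genes, 316 passed with no filter, 410 with no trend, 730 with the block and 5 to 1445 over samples left out. More genes or fewer samples entered where the filter was dropped or a sample left out, and for the other settings the cause was not tested. Whether same-numbered samples shared a dissection or batch is not known. Over 14985 genes, the deviations of same-numbered samples correlated at 0.0349, -0.094 and 0.041, within the range of the other pairs (-0.114 to 0.0808). This cannot exclude a shared factor that acts on some genes, and no sample pair was crossed. The Gjb6 to Gjb2 ratio kept its direction in 10 of 10 alternatives, with -0.27 to -0.12 over samples left out. Depth limits Gja1, Gjb1 and Gjc1, which rested on fewer than 250 estimated fragments per sample.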
